A study of Homo sapiens with 24 samples.

Results

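Cells of the established lung adenocarcinoma line A549, which is human and epithelial, were grown in CAF conditioned medium or as controls, and the 6 polyadenylated RNA libraries collected at 24, 48 and 72 h, of 24 libraries in the series, are described here. There were 3 libraries of cells in CAF medium and 3 control libraries, 1 for each medium and time, and each CAF medium library was set against the control of its own time. CAF usually stands for cancer-associated fibroblast, but the labels do not spell it out, and they give neither the source of the conditioning cells nor what the control cells were kept in. Of 22026 genes in the authors' table, 12206 averaged at least 1 RPKM over the 6 libraries and were tested. RPKM is a read count divided by the length of the gene model and by the number of reads mapped in the library, and it measures a level. The design text speaks of 2 biological replicates, which the values do not hold apart, so the p-values below rest on how far the difference between the media varied among times, and that spread may be technical. The 3 CAF medium and 3 control libraries of 3, 6 and 12 h were in the same fit and share its estimate of spread.

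A dividing cell makes most of its replication proteins shortly before and during DNA synthesis, under transcription factors of the E2F family. It makes most of its mitotic proteins just before division, under the B-MYB, FOXM1 and MuvB complexes. These complexes act at promoter elements called CHR, which often lie near other elements called CCAAT boxes. In cells that leave the cycle, the same promoters are held down by RB-like proteins, and both waves of transcripts decline together. Fibroblasts release growth factors, cytokines and matrix proteins that act on carcinoma cells, and the loss of epithelial adhesion proteins with a gain of mesenchymal ones, the epithelial-mesenchymal transition, is one response often examined in this setting.

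Library depth, worked back from the smallest values, was 33.9 to 40.6 M reads, and the 10 most abundant genes took 13.3 to 18.0% of all RPKM. KRT8, an epithelial keratin, had 1935, 1265 and 1530.4 RPKM in CAF medium at 24, 48 and 72 h and 1848, 2161 and 1759 RPKM in control, and CDKN2A, which A549 cells lack, did not exceed 0.01 RPKM in any of the 6. Summed over 4 keratins, the level was 4642, 3276 and 3771 RPKM in CAF medium and 4528, 5028 and 4253 RPKM in control. Markers of fibroblasts summed to 43.5, 47.8 and 34.9 RPKM in CAF medium and 31.4, 47.3 and 50.5 RPKM in control. Of 16 fibroblast markers listed, 7 averaged at least 1 RPKM and were tested, and limma called 0 of them (1 at an unadjusted p under 0.05, against 2634 of all 12206 tested genes). Their log2 change was above 0 in 5 and below 0 in 2. The collagens COL1A2 and COL3A1 did not exceed 0.16 RPKM, and nearly all of the summed level came from other markers. Of 15 leukocyte, endothelial and erythroid markers 2 were tested and limma called 0 (0 at an unadjusted p under 0.05). These markers summed to 21.11, 33.76 and 22.25 RPKM in CAF medium and 21.01, 20.78 and 22.73 RPKM in control. PTPRC was at 0.04 RPKM or less, so nearly all of that sum came from other markers of the list, which was not absent as a group.

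Cells in CAF medium had lower levels of most listed genes of DNA replication and mitosis than controls at each of the 3 times, together with the transferrin receptor TFRC and the polyamine enzyme ODC1, and higher levels of the glucose-responsive arrestin TXNIP, the lipoprotein APOE and the stress cytokine GDF15. In limma's moderated test on log2(RPKM + 0.5) with Benjamini-Hochberg adjustment, 181 genes rose (1.48% of those tested) and 330 fell (2.70%), at an adjusted p under 0.05. At least 2-fold changes were found in 65 of the genes that rose and 89 of those that fell. Each of the 511 changed in its direction at 3 of 3 times, against 20.9% of all tested genes higher and 25.8% lower at 3 of 3 times. The 3 CAF medium values lay entirely above the 3 control values in 58 of the 181 genes that rose, and entirely below in 36 of the 330 that fell. Of all 12206 tested genes 1351 (11.1%) did not overlap in either direction, which is about the share among the genes that fell. In the remaining called genes the ranges of the 2 media overlapped. The test favours genes whose differences agree across the times, so these counts describe the called genes and are no separate support.

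**Figure D1:**
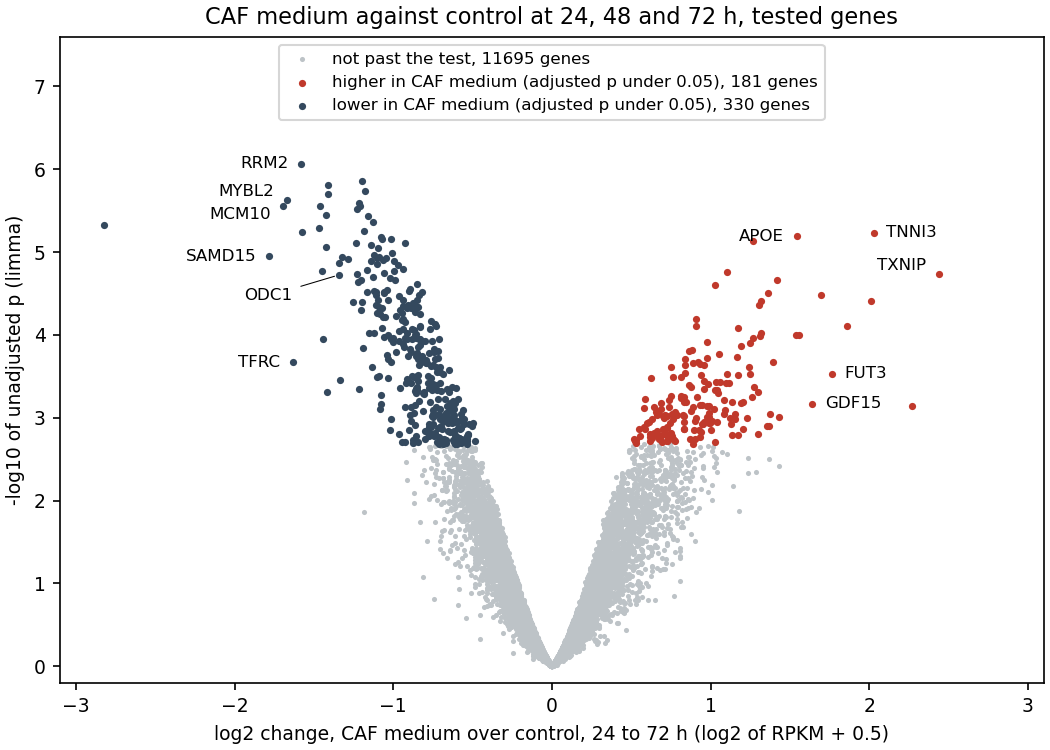
Change of each of the 12206 tested genes between CAF medium and control at 24 to 72 h. The x axis is the log2 change on the log2(RPKM + 0.5) scale, the y axis is the -log10 of limma's unadjusted p, and each point is a gene. The 330 genes that fell (dark) reach smaller p than the 181 that rose (red), with RRM2, MYBL2 and MCM10 at the top left.

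The 3 times did not contribute alike. At 24 h, 465 tested genes were at least 2-fold higher in CAF medium (3.81%) and 82 at least 2-fold lower (0.672%). At 48 h the numbers were 301 higher (2.47%) and 371 lower (3.04%), and at 72 h they were 25 higher (0.205%) and 92 lower (0.754%). Single times have 1 library per medium and no test. Among the genes that rose, the largest of the 3 differences was at 24 h in 86, at 48 h in 90 and at 72 h in 5. Among the genes that fell, the lowest was at 24 h in 45, at 48 h in 241 and at 72 h in 44.

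The test depended on the 48 h libraries. Below, a time left out means that both of its libraries were dropped from the fit. With 48 h left out 5 genes rose and 33 fell, against 59 and 225 with 24 h left out and 228 and 249 with 72 h left out. With the 6 libraries fitted alone, without those of 3 to 12 h to share the estimate of spread, 58 rose and 161 fell. All 511 genes kept their direction in each of these fits. This was fixed in advance, since each had the same sign at 3 of 3 times. With no filter on low values 18 genes rose and 18 fell among 22026 tested.

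Control cells changed over the same days, so each gene below is given at each time. Control at 72 h was above control at 24 h in 180 of the 181 genes that rose, and below it in 328 of the 330 that fell, against 6077 above and 6108 below among all tested genes. The median of that log2 difference in control was 1.25 in the genes that rose, -1.07 in those that fell and 0.00 over all tested genes. Nearly every called gene thus differed between the media in the direction in which it differed between control at 72 h and control at 24 h. Both of these control libraries also enter the test between the media. CAF medium at 24 h was closer to control at 48 h, with 34 tested genes at least 2-fold apart, than to control at 24 h, with 546. CAF medium at 48 h differed at least 2-fold from control at 48 h in 672 genes, from control at 72 h in 284 and from CAF medium at 72 h in 194. Control at 72 h differed from control at 24 h in 1008 genes. How many cells were in each dish is not given in the labels, and the part of cell density or of used-up medium in these differences was not tested.

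**Figure D2:**
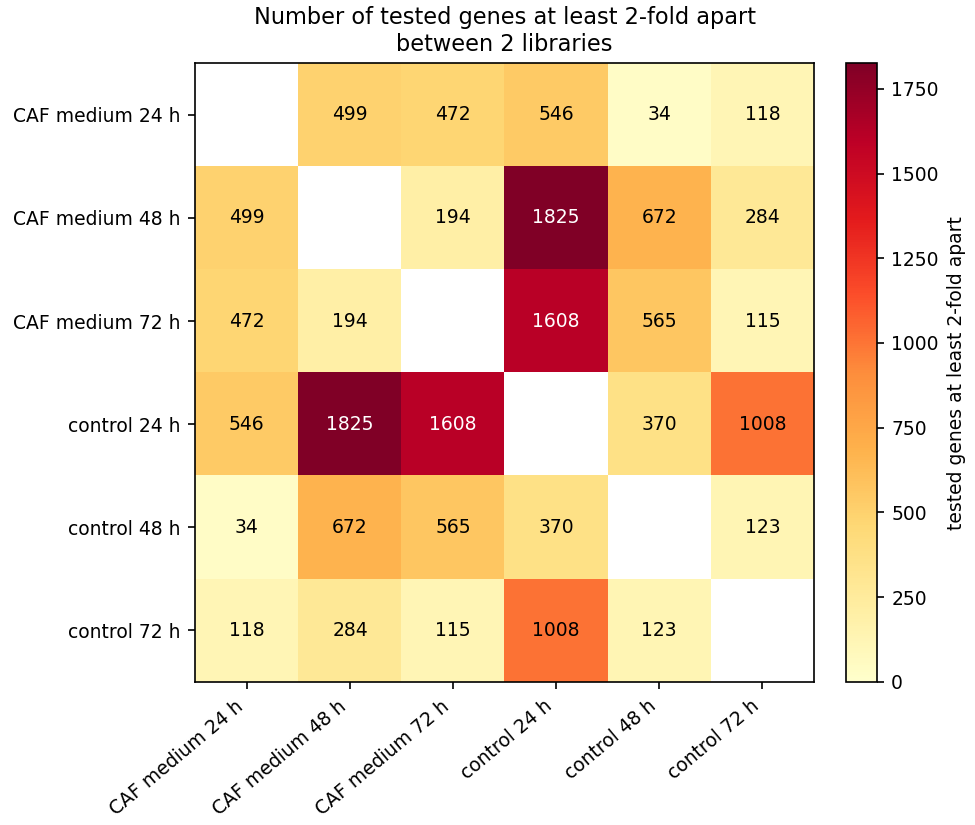
Number of tested genes at least 2-fold apart on the log2(RPKM + 0.5) scale between each pair of the 6 libraries, CAF medium first. The lowest number, 34, is between CAF medium at 24 h and control at 48 h, and the highest, 1825, between CAF medium at 48 h and control at 24 h.

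Genes of DNA replication fell as a group. Of 40 members, all tested, 32 fell and 0 rose, where 2.70% of all tested genes fell and 1.48% rose. The log2 change was below 0 in all 40, against 6389 of all 12206 tested genes. The median was -0.84, against -0.02 over all tested genes. RRM2, the small subunit of the ribonucleotide reductase that makes deoxynucleotides, had 16.7, 6.57 and 3.23 RPKM in CAF medium at 24, 48 and 72 h, against 70.4, 18.5 and 8.53 RPKM in control. Each medium was highest at 24 h, and the control at 72 h lay below the CAF medium at 24 h, so the groups overlapped although CAF medium was lower at each time. The log2 change was -1.58 ± 0.16 (standard error), with a limma adjusted p of 0.00335. C2orf48, now an older name of RRM2 but listed apart by the authors, changed by -0.89 ± 0.16 (limma adjusted p = 0.0121). It lost the call with 48 h left out (0.144), with 72 h left out (0.0614) and in the 6 libraries alone (0.0652). At 3 to 12 h C2orf48 was higher in CAF medium, by 0.86 (limma adjusted p = 0.0201), when 3.75% of tested genes rose.

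The loading and firing of replication origins followed the same order. MCM10, which joins the replicative helicase at firing, had 5.64, 1.19 and 0.62 RPKM in CAF medium and 14.99, 6.66 and 3.05 RPKM in control. CDC6, which loads the helicase, had 13.4, 4.21 and 3.02 RPKM in CAF medium and 26.5, 13.5 and 7.04 RPKM in control. CDC45, a part of the active helicase, had 9.72, 2.47 and 2.03 RPKM in CAF medium and 20.2, 10.98 and 5.76 RPKM in control. For all 3 genes the lowest values were those of CAF medium at 48 and 72 h and the highest that of control at 24 h, and the groups overlapped. Their log2 changes were -1.69 ± 0.20, -1.21 ± 0.14 and -1.42 ± 0.19, with limma adjusted p of 0.00335, 0.00335 and 0.00376. The helicase subunits MCM2 to MCM7 all fell, by a log2 change between -0.75 in MCM6 and -1.16 in MCM4 (limma adjusted p = 0.0338 and 0.00934; 0.313 and 0.119 with 48 h left out). MCM6 was not called with 24 or 72 h left out either (limma adjusted p = 0.0602 and 0.0577). CLSPN, a checkpoint adaptor at the fork, had 6.46, 1.18 and 1.35 RPKM in CAF medium and 16.9, 6.9 and 3.94 RPKM in control, a log2 change of -1.58 ± 0.20 (limma adjusted p = 0.00369).

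Enzymes that supply nucleotides and finish the new strand were lower too. TK1, thymidine kinase, had 14.7, 4.66 and 3.21 RPKM in CAF medium and 24.8, 17.1 and 7.4 RPKM in control. TYMS, thymidylate synthase, had 46.98, 18.2 and 17.7 RPKM in CAF medium and 81.5, 52.3 and 28.1 RPKM in control. FEN1, the flap nuclease of the lagging strand, had 20.4, 6.13 and 6.43 RPKM in CAF medium and 37.2, 19.5 and 12.8 RPKM in control. On the log2 scale the difference between the media was largest at 48 h in these 3. The log2 changes were -1.20 ± 0.18, -0.98 ± 0.18 and -1.13 ± 0.16 (limma adjusted p = 0.00602, 0.012 and 0.00455; 0.0728, 0.134 and 0.0558 with 48 h left out). UHRF1, which carries DNA methylation to the new strand, had 11.96, 2.67 and 2.61 RPKM in CAF medium and 22.7, 11.4 and 5.57 RPKM in control, a log2 change of -1.26 ± 0.19 (limma adjusted p = 0.00602, and 0.0666 with 48 h left out).

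Among the 8 members that did not pass the test were CDT1, POLA1, POLD1, POLD3, PCNA, RFC4 and DUT, and the 8 had log2 changes between -0.51 in PCNA and -0.09 in POLD1. PCNA, the sliding clamp of the polymerases, had 139, 109 and 95.8 RPKM in CAF medium and 191, 180.1 and 122 RPKM in control. RRM1, the partner of RRM2, had 40.7, 28.99 and 25.03 RPKM in CAF medium and 58.8, 41.99 and 34.3 RPKM in control, and its log2 change of -0.50 ± 0.12 passed the test (limma adjusted p = 0.0366; 0.151, 0.229 and 0.0944 with 24, 48 or 72 h left out). Of the 40 members 22 fell with 24 h left out, 5 with 48 h left out (MCM10, RRM2, CLSPN, CDC45 and CDC6), 25 with 72 h left out and 17 in the fit of the 6 libraries alone. Fewer cells in cycle and less of these transcripts per cell cannot be told apart in RNA from whole cultures.

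**Figure D3:**
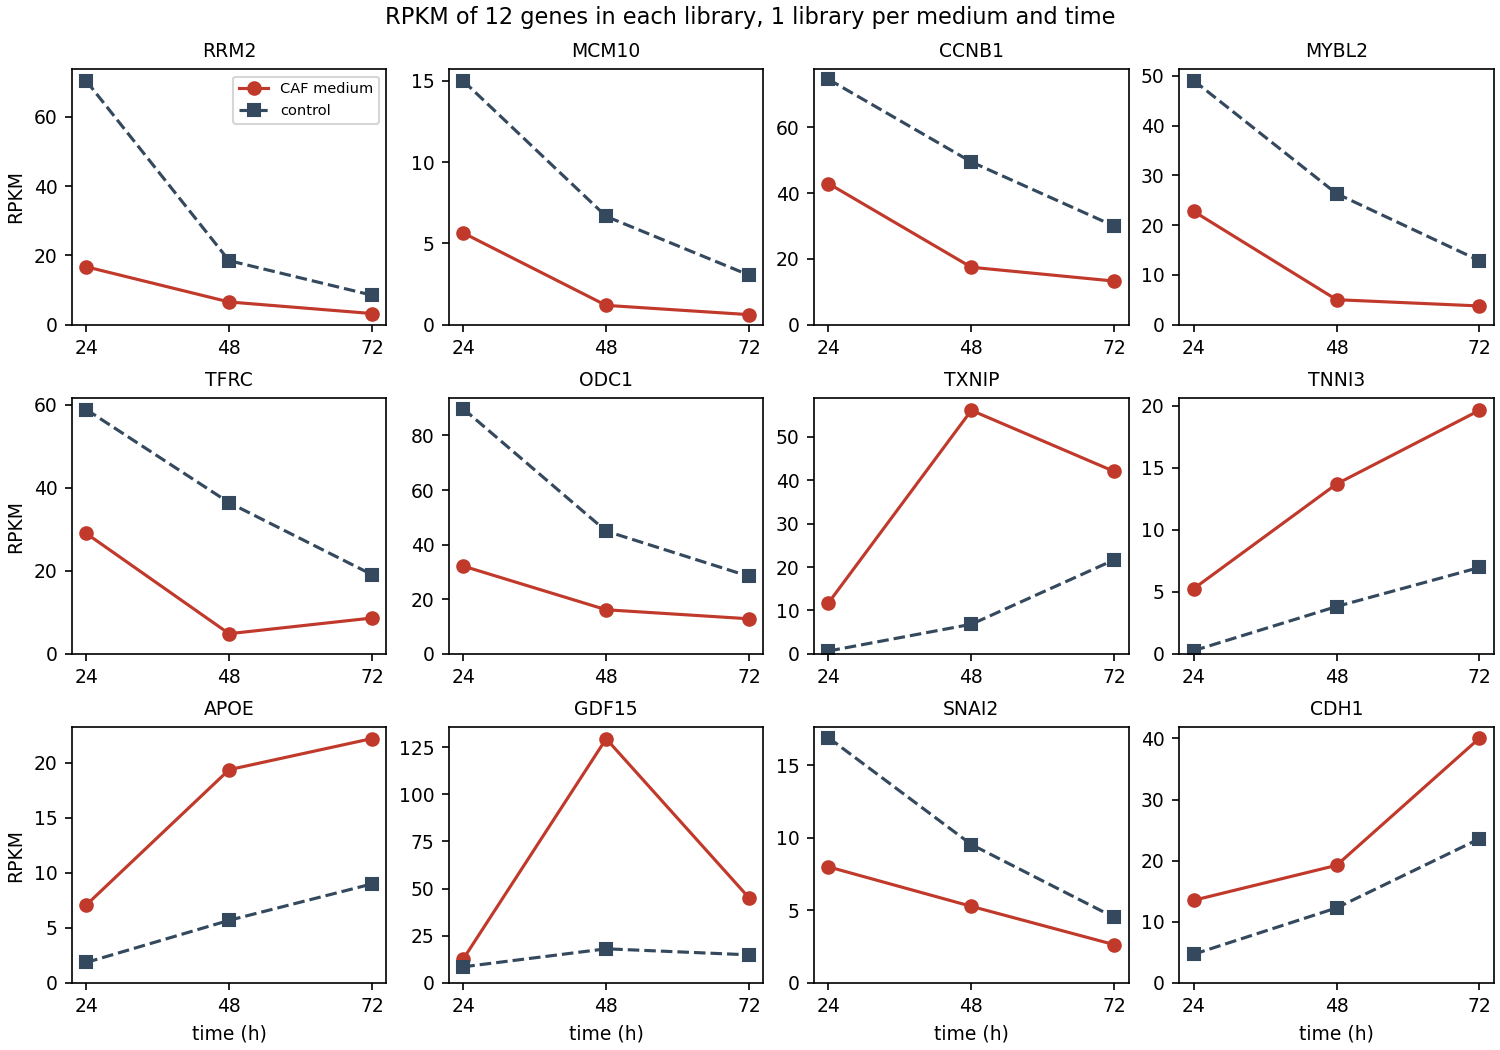
RPKM of 12 genes in each of the 6 libraries, with time in hours on the x axis (evenly spaced), CAF medium as circles and control as squares, 1 library per point. In RRM2, MCM10, CCNB1, MYBL2, TFRC, ODC1 and SNAI2 the CAF medium line is the lower one at each time, and in TXNIP, TNNI3, APOE, GDF15 and CDH1 the higher one.

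Genes of mitosis held the highest count of falls of the 37 lists. Of 40 members, all tested, 37 fell and 0 rose, where 2.70% of all tested genes fell and 1.48% rose. The median log2 change was -0.99, with a range of -1.34 to -0.17. CCNB1, the cyclin that starts mitosis, had 42.9, 17.5 and 13.3 RPKM in CAF medium at 24, 48 and 72 h and 74.6, 49.5 and 29.96 RPKM in control. CCNA2, the cyclin of late DNA synthesis and mitotic entry, had 17.9, 7.72 and 4.94 RPKM in CAF medium and 34.2, 19.3 and 12.8 RPKM in control. Levels of both were lower at each later time in either medium, and CAF medium was below the control of its time 3 times out of 3. Their log2 changes were -1.14 ± 0.15 and -1.16 ± 0.14 (limma adjusted p = 0.00369 and 0.00341).

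Spindle and kinetochore proteins were among them. HMMR, a spindle assembly factor, had 28.8, 9.77 and 8.43 RPKM in CAF medium and 48.2, 36.9 and 23.5 RPKM in control, and the largest fall of the list, -1.34 ± 0.18. NDC80, the microtubule-binding subunit of the kinetochore, had 9.31, 4.38 and 3.25 RPKM in CAF medium and 20.7, 11.2 and 7.96 RPKM in control. CENPF, a large kinetochore protein, had 33.5, 15.2 and 10.3 RPKM in CAF medium and 56.1, 42.9 and 29.1 RPKM in control. For HMMR and CENPF the log2 difference was smallest at 24 h, and for NDC80 it was -1.11, -1.26 and -1.17 at 24, 48 and 72 h. The limma adjusted p was 0.00405 for HMMR, 0.00335 for NDC80 and 0.00479 for CENPF, and with 48 h left out it was 0.053, 0.0397 and 0.0728.

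PLK1, a kinase of centrosome maturation and cytokinesis, had 18.8, 8.33 and 4.28 RPKM in CAF medium and 30.3, 22.04 and 12.7 RPKM in control. AURKB, the kinase of the chromosomal passenger complex, had 33.9, 20.1 and 10.1 RPKM in CAF medium and 51.6, 37.5 and 24.9 RPKM in control. CDK1, the kinase bound by cyclin B, had 9.76, 5.5 and 4.0 RPKM in CAF medium and 14.5, 10.5 and 7.71 RPKM in control. In all 3 the control at 72 h lay below CAF medium at 24 h, and CAF medium was lower at each time. Their log2 changes were -1.17 ± 0.17, -0.92 ± 0.16 and -0.77 ± 0.13 (limma adjusted p = 0.0054, 0.00966 and 0.00877; 0.0773, 0.0909 and 0.103 with 48 h left out). AURKB also lost the call with 72 h left out (limma adjusted p = 0.054). MKI67, the proliferation antigen, had 29.6, 11.8 and 8.68 RPKM in CAF medium and 57.2, 32.4 and 22.8 RPKM in control, a log2 change of -1.23 ± 0.16 (limma adjusted p = 0.00369, and 0.053 with 48 h left out). INCENP, the scaffold of the passenger complex, was the one member of the list whose groups did not overlap, with 10.7, 8.37 and 8.81 RPKM in CAF medium and 17.02, 13.1 and 12.1 RPKM in control (limma adjusted p = 0.0311; 0.137, 0.215 and 0.0612 with 24, 48 or 72 h left out).

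CENPA, PTTG1 and ECT2 were the 3 members that did not pass the test. ECT2, an activator of the contractile ring, had 31.7, 31.03 and 21.7 RPKM in CAF medium and 39.9, 30.03 and 25.8 RPKM in control, with CAF medium slightly the higher at 48 h. The median difference of the mitosis list was -0.70 at 24 h, -1.08 at 48 h and -1.19 at 72 h. The replication list had medians of -0.73, -1.19 and -0.59. The mitotic median was lowest at 72 h and the replication median at 48 h. Of the 40 mitotic members 33 fell with 24 h left out, 8 with 48 h left out, 28 with 72 h left out and 31 with the 6 libraries alone.

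**Figure D4:**
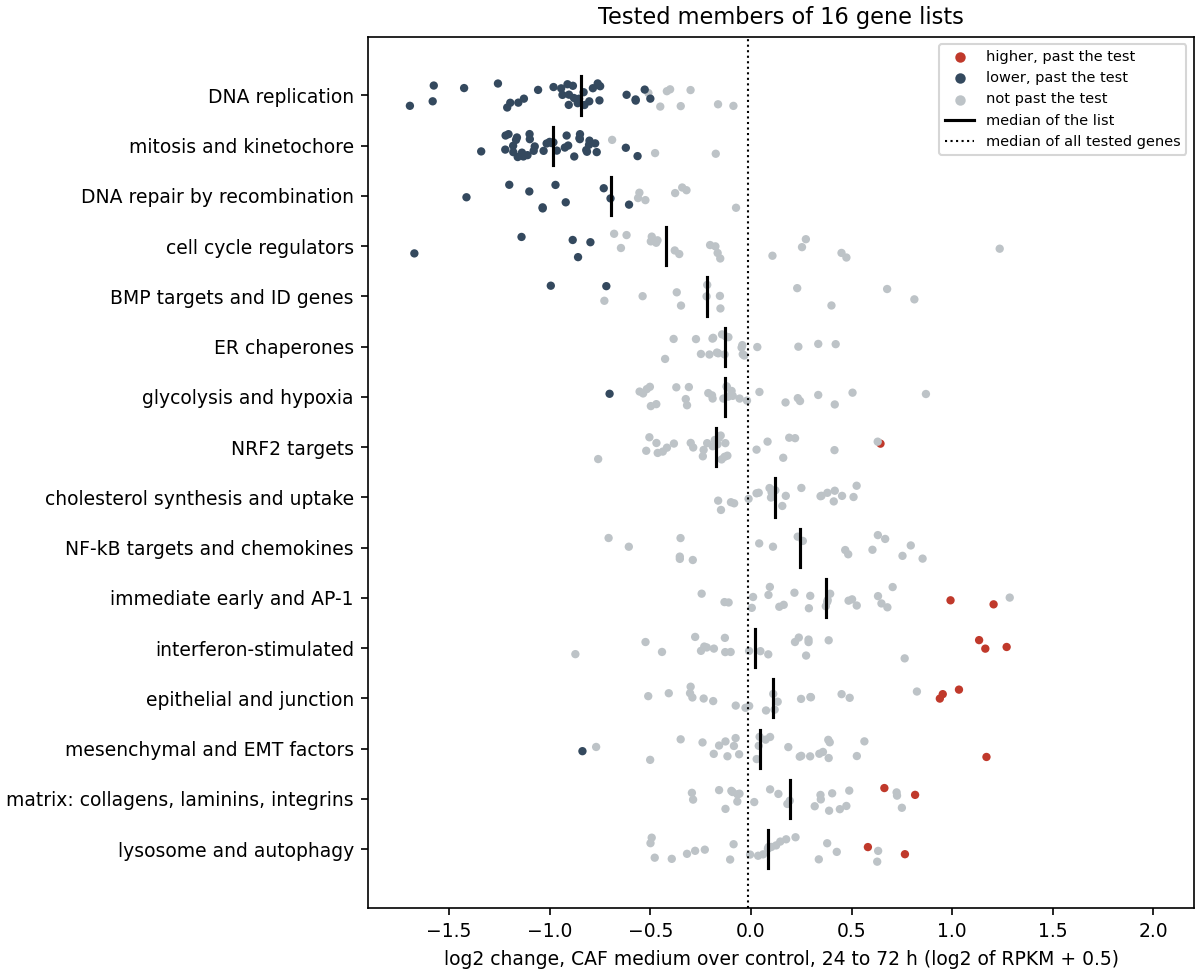
Log2 change, CAF medium over control at 24 to 72 h, of the tested members of 16 gene lists, 1 point per gene with random vertical offset. Black bars are the medians of the lists and the dotted line is the median of all tested genes; the medians of the replication and mitosis lists are -0.84 and -0.99.

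The promoters of both lists are shown because their letters differ while their transcripts moved together. Sequences are those of RefSeq, build GRCh38.p14, from 250 bases before to 50 after the annotated start, and 29 of the 32 replication genes and 31 of the 37 mitosis genes that fell had an entry. Capitals mark 3 kinds of letters on either strand. The CHR letters were TTTGAA together with its variants in the middle bases, which were TTCGAA and then also the form TTTAAA. Read from the other strand, TTTGAA is TTCAAA. The CCAAT box was CCAAT, which reads ATTGG from the other strand. The E2F letters were those of any of 6 forms (TTTCCCGC, TTTGGCGC, TTTCGCGC, TTTGCCGC, TTTGGCGG or TTCCCGCC). Some E2F letter sets overlap one another, and the capitals of neighbouring matches then run together. The first 3 are replication genes that fell, and the last 3 are mitosis genes that fell. MCM10 lies at chr10:13161308-13161607 (plus strand), RRM2 at chr2:10122489-10122788 (plus strand), CLSPN at chr1:35769929-35770228 (minus strand), HMMR at chr5:163460382-163460681 (plus strand), CENPF at chr1:214602945-214603244 (plus strand) and CKAP2L, a spindle protein, at chr2:112764560-112764859 (minus strand).
MCM10: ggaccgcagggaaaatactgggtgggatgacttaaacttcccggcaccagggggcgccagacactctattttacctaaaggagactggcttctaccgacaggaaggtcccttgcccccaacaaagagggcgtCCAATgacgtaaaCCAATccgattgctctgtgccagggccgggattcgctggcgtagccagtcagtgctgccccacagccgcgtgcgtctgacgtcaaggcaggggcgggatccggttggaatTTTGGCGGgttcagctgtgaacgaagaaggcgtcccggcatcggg
RRM2: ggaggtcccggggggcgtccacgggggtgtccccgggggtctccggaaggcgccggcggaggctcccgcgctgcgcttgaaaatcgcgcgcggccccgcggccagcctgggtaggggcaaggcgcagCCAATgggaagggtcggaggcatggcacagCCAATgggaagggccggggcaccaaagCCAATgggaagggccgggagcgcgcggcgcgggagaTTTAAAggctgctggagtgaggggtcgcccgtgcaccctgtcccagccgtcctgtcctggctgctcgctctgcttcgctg
CLSPN: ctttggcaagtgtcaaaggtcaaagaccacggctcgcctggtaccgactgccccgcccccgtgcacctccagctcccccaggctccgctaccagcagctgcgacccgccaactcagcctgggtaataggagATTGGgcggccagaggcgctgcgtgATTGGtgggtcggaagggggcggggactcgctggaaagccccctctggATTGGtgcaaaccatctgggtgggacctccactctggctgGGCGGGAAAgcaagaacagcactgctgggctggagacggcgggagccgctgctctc
HMMR: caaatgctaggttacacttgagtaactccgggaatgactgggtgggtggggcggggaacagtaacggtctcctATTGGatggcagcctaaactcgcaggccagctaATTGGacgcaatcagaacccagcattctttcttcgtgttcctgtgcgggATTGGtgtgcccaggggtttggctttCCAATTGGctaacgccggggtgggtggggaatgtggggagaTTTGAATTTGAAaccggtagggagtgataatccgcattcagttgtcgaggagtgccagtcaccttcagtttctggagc
CENPF: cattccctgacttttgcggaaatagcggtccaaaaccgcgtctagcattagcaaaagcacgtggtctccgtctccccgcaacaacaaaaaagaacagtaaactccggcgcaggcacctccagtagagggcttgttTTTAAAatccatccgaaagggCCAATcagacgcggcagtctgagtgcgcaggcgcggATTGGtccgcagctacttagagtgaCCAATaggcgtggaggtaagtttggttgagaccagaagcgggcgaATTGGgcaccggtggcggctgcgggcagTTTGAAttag
CKAP2L: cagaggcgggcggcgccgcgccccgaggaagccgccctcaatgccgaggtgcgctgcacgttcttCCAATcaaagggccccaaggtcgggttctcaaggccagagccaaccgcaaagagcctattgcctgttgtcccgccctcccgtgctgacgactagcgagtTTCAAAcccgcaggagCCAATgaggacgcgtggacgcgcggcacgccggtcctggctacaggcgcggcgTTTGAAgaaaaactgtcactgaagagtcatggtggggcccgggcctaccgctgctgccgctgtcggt

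MCM10 and CLSPN held E2F letters and no CHR letters, while HMMR, CENPF and CKAP2L held CHR letters and no E2F letters. RRM2, a replication gene, held 3 CCAAT boxes and no E2F letters. Its 1 match to the CHR letters was the form TTTAAA, which began 30 bases before the start, and TTTGAA was not found. CHR letters were found in 87.1% of the promoters of the mitosis genes that fell and 13.8% of those of the replication genes that fell, against 16.6% of the promoters of all tested genes and 25.3% of all 27305 in the RefSeq table. E2F letters were found in 12.9% of the mitosis and 75.9% of the replication promoters, against 10.2% of those of tested genes and 6.2% of the RefSeq table. CCAAT boxes were found in 77.4% and 62.1%, against 36.6% of those of tested genes. They were also found in 77.8% of 18 promoters of the cholesterol list, of which 0 genes were called. Over all tested members of the mitosis list, fallen or not, CHR letters were found in 88.2% and CCAAT boxes in 79.4%. Among all genes that fell, 43.8% of 267 promoters held CHR letters and 24.0% E2F letters, and among those that rose 12.7% and 6.8% of 118. CCAAT boxes were found in 50.6% of the promoters of genes that fell and 43.2% of those that rose. Of the other letters searched, the MYC-type E-box (CACGTG), the hypoxia core (ACGTG), AP-1 (TGANTCA), CRE (TGACGTCA) and the sterol element (TCACNCCAC), the hypoxia core was the most frequent, in 38.7% of the mitosis and 27.6% of the replication promoters, against 27.0% of those of tested genes. CRE letters were found in 12.9% of the mitosis and 6.9% of the replication promoters, against 3.4% of those of tested genes. A match is a description of the letters in this window and shows no binding.

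Of the transcription factors and brakes of the cycle, 5 of 24 tested fell and 0 rose, where 2.70% of all tested genes fell and 1.48% rose. MYBL2, the B-MYB factor of the mitotic wave, had 22.8, 5.03 and 3.77 RPKM in CAF medium and 49.1, 26.3 and 12.9 RPKM in control. FOXM1, its partner at mitotic promoters, had 8.09, 2.76 and 2.1 RPKM in CAF medium and 15.9, 8.86 and 4.56 RPKM in control. MYBL2 in CAF medium at 48 and 72 h was below every control value, and its log2 change was -1.67 ± 0.19 (limma adjusted p = 0.00335, and 0.0397 with 48 h left out). FOXM1 changed by -1.14 ± 0.16 (limma adjusted p = 0.00393, and 0.0531 with 48 h left out). E2F1 and E2F7, of the E2F family, and the RB-like RBL1 changed by -0.89, -0.86 and -0.80 on the log2 scale (limma adjusted p = 0.02, 0.0234 and 0.0415), and their adjusted p was 0.208, 0.173 and 0.321 with 48 h left out and 0.0586, 0.103 and 0.128 with 24 h left out.

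The inhibitors of cyclin-dependent kinases did not pass the test. CDKN1A, known as p21, had 46.1, 118 and 70.2 RPKM in CAF medium and 43.2, 60.3 and 56.9 RPKM in control, with the one wide gap at 48 h. CDKN1B, known as p27, had 18.9, 41.2 and 42.7 RPKM in CAF medium and 14.3, 24.2 and 35.2 RPKM in control. CDKN1C, known as p57, had 3.67, 5.57 and 4.03 RPKM in CAF medium and 0.32, 2.06 and 3.68 RPKM in control, a log2 change of 1.24 ± 0.35 (limma adjusted p = 0.0751). All 3 were higher in CAF medium at 3 of 3 times, and the limma adjusted p of CDKN1A and CDKN1B was 0.178 and 0.191. CCND1, the cyclin induced by growth factors, had 51.2, 44.9 and 45.4 RPKM in CAF medium and 65.95, 50.9 and 47.6 RPKM in control, and MYC had 36.95, 44.1 and 33.1 RPKM in CAF medium and 43.8, 34.5 and 28.5 RPKM in control; neither passed the test.

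Homologous recombination genes, which repair breaks at replication forks, fell in 10 of 17 tested members with 0 risen and a median log2 change of -0.70. Of all tested genes 2.70% fell and 1.48% rose. EXO1, a nuclease that resects DNA ends, had 5.78, 1.56 and 1.1 RPKM in CAF medium and 13.7, 5.96 and 3.75 RPKM in control. BRCA1, which commits a break to recombination, had 6.43, 2.12 and 1.97 RPKM in CAF medium and 14.3, 7.42 and 4.15 RPKM in control. BLM, a helicase that takes recombination intermediates apart, had 4.21, 1.35 and 0.88 RPKM in CAF medium and 8.66, 4.54 and 2.07 RPKM in control. All 3 were highest in control at 24 h and lowest in CAF medium at 72 h. Their log2 changes were -1.41 ± 0.16, -1.20 ± 0.19 and -1.10 ± 0.15 (limma adjusted p = 0.00335, 0.00649 and 0.00393). With 48 h left out EXO1 alone of the 10 remained called, with a limma adjusted p of 0.0397, against 0.0909 for BRCA1 and 0.053 for BLM.

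Several of the largest falls were in genes outside these lists. TFRC, the receptor that takes up transferrin-bound iron, had 29.01, 4.84 and 8.62 RPKM in CAF medium and 58.9, 36.4 and 19.1 RPKM in control, and CAF medium at 48 and 72 h lay below all controls. Its log2 change was -1.63 ± 0.31 (limma adjusted p = 0.0141, and 0.103 with 48 h left out). ODC1, the first enzyme of polyamine synthesis, had 32.1, 16.1 and 12.8 RPKM in CAF medium and 89.8, 44.95 and 28.4 RPKM in control, with log2 differences between -1.47 at 24 h and -1.12 at 72 h. Its log2 change was -1.34 ± 0.19 (limma adjusted p = 0.00444, and 0.0675 with 48 h left out). TUBA1B, an alpha-tubulin with near-identical copies whose reads the counting could split, had 43.8, 18.4 and 22.5 RPKM in CAF medium and 116, 66.5 and 38.1 RPKM in control, a log2 change of -1.32 ± 0.18 (limma adjusted p = 0.00393). SAMD15, a protein of little known function, had 2.99, 0.42 and 1.11 RPKM in CAF medium and 7.66, 5.4 and 3.86 RPKM in control, with no overlap. It had the largest fall named here, -1.78 ± 0.24 on the log2 scale (limma adjusted p = 0.00393).

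The other members of the 20 largest falls not described so far were SPC25, SKA1 and ZWINT of the kinetochore, the condensin subunit NCAPG, the anaphase bridge helicase ERCC6L, the midbody protein SHCBP1 and FAM111B, a serine protease. Their log2 changes lay between -1.47 ± 0.18 in SPC25 and -1.28 ± 0.17 in SKA1. SPC25 had 12.6, 3.21 and 3.26 RPKM in CAF medium and 24.98, 14.7 and 9.55 RPKM in control. FAM111B had 4.13, 0.41 and 0.62 RPKM in CAF medium and 11.7, 3.48 and 1.46 RPKM in control, and it lost the call with 48 h left out (limma adjusted p = 0.123).

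TXNIP had the largest rise named. It codes for an arrestin-like protein that lowers glucose uptake and is induced when glucose metabolites are plentiful or growth signals low. It had 11.8, 56.1 and 42.04 RPKM in CAF medium and 0.64, 6.81 and 21.7 RPKM in control at 24, 48 and 72 h. Both media had their lowest value at 24 h, and the control at 72 h was above the CAF medium at 24 h. The log2 change was 2.44 ± 0.35 (limma adjusted p = 0.00442), narrowing to 0.94 at 72 h, and the call was lost with 48 h left out (adjusted p = 0.0728). ARRDC4, a related arrestin that also responds to glucose, had 5.68, 13.6 and 10.9 RPKM in CAF medium and 2.04, 4.95 and 8.87 RPKM in control. ARRDC4 rose by 0.98 ± 0.22 (limma adjusted p = 0.0337; 0.137 with 24 h left out and 0.316 with 48 h left out). These were the 2 called members of 11 tested in the list of glucose-responsive genes, where 1.48% of all tested genes rose.

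APOE, GDF15, PIP and KISS1, which code for secreted proteins, were among the 20 largest rises. APOE, the lipid carrier apolipoprotein E, had 7.07, 19.4 and 22.2 RPKM in CAF medium and 1.85, 5.68 and 8.99 RPKM in control, with the one overlap between CAF medium at 24 h and control at 72 h. Its log2 change of 1.54 ± 0.20 (limma adjusted p = 0.00369) remained called with 24, 48 or 72 h left out, at 0.00957, 0.0498 and 0.0114. GDF15, a stress-induced member of the TGF-beta family, had 12.7, 129 and 45.04 RPKM in CAF medium and 8.49, 18.04 and 14.8 RPKM in control, the 48 h CAF medium library being far above the rest. It rose by 1.64 ± 0.35 (limma adjusted p = 0.0283; 0.268 with 48 h left out and 0.0584 with 72 h left out). PIP, the prolactin-induced protein that glands secrete, had 4.2, 10.1 and 20.7 RPKM in CAF medium and 1.08, 2.45 and 12.9 RPKM in control. KISS1, the kisspeptin precursor, had 0.7, 3.67 and 3.86 RPKM in CAF medium and 0.04, 0.4 and 1.26 RPKM in control. PIP and KISS1 rose by 1.36 ± 0.20 and 1.56 ± 0.27 (limma adjusted p = 0.0054 and 0.00947; 0.0801 and 0.138 with 48 h left out).

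TNNI3, TNNT1 and CALY, also among the 20, code for proteins known from muscle or nerve. TNNI3, cardiac troponin I, had 5.25, 13.7 and 19.6 RPKM in CAF medium and 0.25, 3.81 and 6.96 RPKM in control. TNNT1, slow skeletal troponin T and a neighbour of TNNI3 on chromosome 19, had 48.5, 84.7 and 119.9 RPKM in CAF medium and 9.87, 41.99 and 65.3 RPKM in control. Both were higher at each later time in either medium and higher in CAF medium at each time. The log2 changes were 2.03 ± 0.26 and 1.37 ± 0.31 (limma adjusted p = 0.00369 and 0.0331). TNNI3 remained called without any 1 pair, and TNNT1 lost the call with 24 h left out (0.142) and with 48 h left out (0.138). CALY, a neuronal vesicle protein, had 2.25, 7.06 and 7.14 RPKM in CAF medium and 0.14, 0.78 and 3.53 RPKM in control, a log2 change of 1.86 ± 0.31 (limma adjusted p = 0.0085, and 0.125 with 48 h left out).

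SUSD2, FUT3 and ST8SIA6 were among the 20 largest rises as well. SUSD2, a sushi domain surface protein, had 53.9, 111 and 107 RPKM in CAF medium and 15.9, 46.2 and 54.4 RPKM in control. FUT3, the Lewis fucosyltransferase, had 0.34, 4.54 and 3.21 RPKM in CAF medium and 0.04, 0.19 and 0.57 RPKM in control. ST8SIA6, a sialyltransferase, had 3.23, 4.74 and 3.66 RPKM in CAF medium and 0.44, 1.33 and 2.25 RPKM in control. ST8SIA6 did not overlap between the media, SUSD2 in CAF medium at 24 h was about level with control at 72 h, and FUT3 in CAF medium at 48 and 72 h was above all other libraries. Their log2 changes were 1.32 ± 0.22, 1.77 ± 0.34 and 1.37 ± 0.32, with limma adjusted p of 0.00936, 0.0174 and 0.0385, and of 0.0878, 0.2 and 0.284 with 48 h left out. FUT3 also lost the call with 72 h left out (limma adjusted p = 0.0506) and ST8SIA6 with 24 h left out (0.156). GSDMB, a gasdermin, and GPR132, a proton- and lipid-sensing receptor, rose by 1.32 ± 0.20 and 1.54 ± 0.26 (limma adjusted p = 0.00593 and 0.00947; 0.0874 and 0.132 with 48 h left out). The other members of the 20 largest rises were CAPN12, MAP1LC3B2, COX6B2, KLRG2, ITGA10, TMEM178A and BEX4, between 1.27 ± 0.26 and 1.70 ± 0.26 on the log2 scale, all at low levels, and 0 of the 7 remained called with 48 h left out in limma's fit. MAP1LC3B2 is a near copy of MAP1LC3B, and its reads may belong to that gene.

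The authors' table held 38 epithelial and junction genes, of which 23 were tested, and limma called 3 higher and 0 lower (8 at an unadjusted p under 0.05 in either direction). Over all tested genes 1.48% rose and 2.70% fell, and 2634 of 12206 were at an unadjusted p under 0.05. The log2 change was above 0 in 13 of the 23 and below 0 in 10, with a median of 0.11, and 4 were lower in CAF medium at 3 of 3 times. CDH1, E-cadherin, had 13.5, 19.2 and 40.04 RPKM in CAF medium and 4.68, 12.3 and 23.6 RPKM in control. EPCAM, an epithelial adhesion protein, had 3.17, 3.98 and 6.46 RPKM in CAF medium and 0.67, 2.5 and 3.3 RPKM in control. TJP3, a tight junction scaffold, had 1.73, 4.38 and 5.07 RPKM in CAF medium and 0.57, 1.35 and 3.72 RPKM in control. All 3 were higher in CAF medium at 3 of 3 times, and the ranges of the media overlapped. They rose by 0.94 ± 0.23, 1.03 ± 0.21 and 0.95 ± 0.22 (limma adjusted p = 0.0428, 0.0197 and 0.0373). With 48 h left out the adjusted p was 0.148, 0.0685 and 0.347, and with 24 h left out 0.184, 0.0973 and 0.117. CDH1 was not called with 72 h left out either (limma adjusted p = 0.068). FERMT1, an epithelial kindlin outside the list that was chosen after its values were seen, had 1.95, 0.94 and 1.19 RPKM in CAF medium and 3.15, 2.24 and 2.28 RPKM in control, with no overlap. It changed by -0.74 ± 0.18 on the log2 scale (limma adjusted p = 0.0454; 0.0849, 0.321 and 0.1 with 24, 48 or 72 h left out).

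Among mesenchymal genes and the factors of the epithelial-mesenchymal transition, 1 of 29 tested rose and 1 fell, against 1.48% and 2.70% of all tested genes. SNAI2, known as Slug, a repressor of E-cadherin, had 7.99, 5.27 and 2.63 RPKM in CAF medium and 16.9, 9.53 and 4.51 RPKM in control, below control at each time. It changed by -0.84 ± 0.13 on the log2 scale (limma adjusted p = 0.00558, and 0.0648 with 48 h left out). MMP14, a membrane-bound collagenase, had 1.41, 4.6 and 3.34 RPKM in CAF medium and 0.45, 0.97 and 1.85 RPKM in control and rose by 1.17 ± 0.23 (limma adjusted p = 0.0176, and 0.21 with 48 h left out). VIM, the mesenchymal filament vimentin, had 481, 504 and 221 RPKM in CAF medium and 573, 445 and 308 RPKM in control, higher in CAF medium at 48 h and lower at 24 and 72 h. CDH2, N-cadherin, had 67.7, 53.5 and 48.7 RPKM in CAF medium and 79.3, 72.3 and 63.96 RPKM in control, and FN1, fibronectin, had 152, 263 and 263 RPKM in CAF medium and 109, 203 and 325 RPKM in control.

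VIM, CDH2, FN1, ZEB1, ZEB2 and TWIST1 did not pass the test, with limma adjusted p between 0.183 in CDH2 and 0.905 in ZEB1. SNAI1 was under the filter on low values and was not tested, with 1.17, 1.72 and 0.68 RPKM in CAF medium and 0.71, 1.01 and 0.66 RPKM in control. ZEB1, a repressor of epithelial genes, had 8.98, 11.1 and 7.96 RPKM in CAF medium and 9.16, 8.29 and 9.56 RPKM in control, and its log2 change of 0.04 ± 0.14 turned to -0.14 with 48 h left out. TWIST1 had 11.99, 18.3 and 8.23 RPKM in CAF medium and 7.86, 14.6 and 9.33 RPKM in control. Limma called 0 of the 22 tested TGF-beta targets (3 at an unadjusted p under 0.05, and 1 with voom weights) and 0 of the 19 tested YAP and TEAD targets (5 and 1). Of all 12206 tested genes 2634 were at an unadjusted p under 0.05.

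ID2 and ID3, direct targets of BMP signalling that hold back differentiation factors, fell. ID2 had 8.1, 13.5 and 8.85 RPKM in CAF medium and 15.95, 23.7 and 21.8 RPKM in control, and ID3 had 28.2, 29.96 and 20.4 RPKM in CAF medium and 39.8, 51.5 and 38.4 RPKM in control. Neither overlapped between the media, and neither was at its highest at 24 h in control. They changed by -0.99 ± 0.14 and -0.72 ± 0.13 on the log2 scale (limma adjusted p = 0.00437 and 0.0118). ID2 remained called without any 1 pair, and ID3 lost the call with 48 h left out (0.117) and with 72 h left out (0.0639). Both had also fallen at 3 to 12 h (limma adjusted p = 0.0132 and 0.0176), when 1.79% of tested genes fell. ID1 had 77.03, 136 and 99.5 RPKM in CAF medium and 77.7, 164 and 129.7 RPKM in control and did not pass the test. The list of BMP targets and ID genes held 14 tested members, of which ID2 and ID3 fell and 0 rose, where 2.70% of all tested genes fell.

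Of 24 tested interferon-stimulated genes 3 rose and 0 fell, with a median log2 change of 0.02, where 1.48% of all tested genes rose. IFITM3, a membrane protein that blocks virus entry, had 5.29, 7.06 and 7.45 RPKM in CAF medium and 1.01, 4.06 and 3.1 RPKM in control, with no overlap. IFITM1, its neighbour on chromosome 11, had 1.23, 3.51 and 4.46 RPKM in CAF medium and 0.19, 0.91 and 2.64 RPKM in control. BST2, tetherin, had 2.1, 3.75 and 8.31 RPKM in CAF medium and 0.4, 2.26 and 3.21 RPKM in control. The 3 rose by 1.27 ± 0.22, 1.16 ± 0.21 and 1.13 ± 0.24 (limma adjusted p = 0.00966, 0.0131 and 0.0274), and with 48 h left out IFITM3 alone remained called (0.0424, against 0.175 and 0.0832). BST2 was not called with 24 h left out (0.114) or with 72 h left out (0.0842) either. IFITM1 lost the call with voom weights (adjusted p = 0.0663 in limma) and BST2 with a pseudocount of 0.1. IFITM1 and IFITM3 are similar in sequence, and reads could be split between them.

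Immediate early genes, the first to respond to growth factors and stress, had 26 tested members, of which 2 rose, against 1.48% of all tested genes. The log2 change was above 0 in 23 of the 26, with a median of 0.38, against 5817 of all 12206 tested genes with a log2 change above 0. DUSP5, a phosphatase that ends ERK signalling, had 7.64, 28.2 and 15.6 RPKM in CAF medium and 5.18, 7.56 and 6.22 RPKM in control, with no overlap. NR4A2, an orphan nuclear receptor, had 1.38, 4.57 and 3.01 RPKM in CAF medium and 0.33, 1.42 and 2.17 RPKM in control. Both were highest in CAF medium at 48 h. They rose by 1.21 ± 0.29 and 0.99 ± 0.22 (limma adjusted p = 0.0404 and 0.0294), and neither was called with 48 h left out (adjusted p = 0.354 and 0.305). DUSP5 was not called with 72 h left out (0.0944), nor NR4A2 with 24 h left out (0.103). The median difference of the list was 0.23 at 24 h, 0.72 at 48 h and 0.13 at 72 h.

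Targets of NF-kB, the factor of inflammatory transcription, gave 0 calls by limma among 18 tested (10 at an unadjusted p under 0.05, and 1 with voom weights) and a median of 0.25. At an unadjusted p under 0.05 there were 2634 of all 12206 tested genes. IL6, interleukin 6, had 3.78, 8.93 and 6.49 RPKM in CAF medium and 2.34, 4.7 and 3.49 RPKM in control, and IL8, the neutrophil chemokine, had 79.1, 305 and 173 RPKM in CAF medium and 53.6, 102 and 146 RPKM in control. CCL2, the monocyte chemokine, had 9.63, 7.23 and 11.3 RPKM in CAF medium and 12.6, 11.4 and 25.2 RPKM in control, lower in CAF medium with no overlap, and also did not pass the test. Of the 18, 12 had log2 changes above 0 and 6 below. The limma adjusted p was 0.132 for IL6, 0.0977 for IL8 and 0.204 for CCL2, and IL6 was called as higher in the fit of the 6 late libraries alone (limma adjusted p = 0.0434). Of 22 tested STAT3 and acute phase genes, PIM1, a survival kinase, rose by 0.90 ± 0.21 (limma adjusted p = 0.0361; 0.102 and 0.333 with 24 or 48 h left out), with 7.49, 23.4 and 10.04 RPKM in CAF medium and 3.78, 8.1 and 7.84 RPKM in control. PIM1 was the 1 called of the 22, where 1.48% of all tested genes rose.

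Metabolic lists held few calls, where 1.48% of all tested genes rose and 2.70% fell. Of 30 tested genes of glycolysis and hypoxia, PGAM1, a glycolytic mutase, changed by -0.70 ± 0.14 (limma adjusted p = 0.0169; 0.0738 and 0.173 with 24 or 48 h left out), with 41.6, 24.1 and 19.99 RPKM in CAF medium and 69.1, 45.2 and 28.3 RPKM in control. LDHA, lactate dehydrogenase, had 461, 342 and 315 RPKM in CAF medium and 821, 498 and 383 RPKM in control and did not pass the test. ACSS2, which makes acetyl-CoA from acetate, had 14.8, 28.7 and 17.9 RPKM in CAF medium and 5.73, 11.95 and 16.8 RPKM in control. It was the 1 of 17 tested genes of fatty acid synthesis that rose, by 0.87 ± 0.21 (limma adjusted p = 0.0467), and it lost the call with 24 or 48 h left out (0.194 and 0.36). Limma called 0 of 23 tested genes of cholesterol synthesis and uptake and 0 of 31 nuclear genes of the respiratory chain (5 and 4 at an unadjusted p under 0.05, 0 and 0 with voom weights). Among all 12206 tested genes 2634 were at an unadjusted p under 0.05.

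TKT, transketolase of the pentose phosphate pathway, had 384, 517 and 479 RPKM in CAF medium and 197, 347 and 364 RPKM in control, with no overlap. It rose by 0.64 ± 0.16 (limma adjusted p = 0.0431), the 1 call among 30 tested NRF2 targets, whose median was -0.17, and its adjusted p was 0.224, 0.216 and 0.0537 with 24, 48 or 72 h left out. SLC7A5 and SLC3A2, the light and heavy chains of the LAT1 transporter of large neutral amino acids, fell together. SLC7A5 had 42.98, 26.5 and 27.9 RPKM in CAF medium and 89.9, 65.7 and 39.0 RPKM in control, and SLC3A2 had 39.7, 32.3 and 35.9 RPKM in CAF medium and 82.5, 74.2 and 47.6 RPKM in control. On the log2 scale the difference was largest at 48 h in both. Their log2 changes were -0.94 ± 0.24 and -0.88 ± 0.22 (limma adjusted p = 0.0479 and 0.047; 0.36 and 0.354 with 48 h left out, 0.145 and 0.16 with 24 h left out). They were the 2 called of 30 tested ATF4 targets and genes of serine synthesis, where 2.70% of all tested genes fell.

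Among 26 tested p53 targets, GDF15 and RRM2B rose and TP53I3 fell, where 1.48% of all tested genes rose and 2.70% fell. RRM2B, the p53-induced counterpart of RRM2, had 25.7, 47.4 and 32.1 RPKM in CAF medium and 18.4, 24.8 and 24.98 RPKM in control, with no overlap, and RRM2 fell. RRM2B rose by 0.58 ± 0.14 (limma adjusted p = 0.0391; 0.097, 0.333 and 0.0528 with 24, 48 or 72 h left out). TP53I3, a quinone oxidoreductase, had 22.8, 10.2 and 8.95 RPKM in CAF medium and 42.6, 23.3 and 13.96 RPKM in control and changed by -0.89 ± 0.14 (limma adjusted p = 0.00625, and 0.0871 with 48 h left out). MDM2, the ligase that degrades p53, had 13.9, 13.5 and 13.9 RPKM in CAF medium and 21.5, 20.6 and 14.3 RPKM in control and did not pass the test.

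Matrix and secreted regulators rose in a few members, where 1.48% of all tested genes rose. COL6A2, a chain of collagen VI, had 12.97, 19.7 and 17.02 RPKM in CAF medium and 5.37, 10.8 and 12.7 RPKM in control, with no overlap. COL7A1, the anchoring fibril collagen, had 38.5, 62.6 and 64.4 RPKM in CAF medium and 25.5, 30.4 and 49.7 RPKM in control. They rose by 0.82 ± 0.17 and 0.66 ± 0.16 (limma adjusted p = 0.0248 and 0.0444; 0.184 and 0.354 with 48 h left out, 0.132 and 0.114 with 24 h left out) and were the 2 called of 27 tested collagens, laminins and integrins. MMP15, a membrane-bound metalloprotease, had 6.72, 11.9 and 12.4 RPKM in CAF medium and 2.75, 6.02 and 8.04 RPKM in control and rose by 0.89 ± 0.17 (limma adjusted p = 0.0141; 0.0785 and 0.135 with 24 or 48 h left out), which with MMP14 makes 2 of 13 tested proteases. IGFBP4, a binding protein that restrains insulin-like growth factors, had 905, 1286 and 1139.6 RPKM in CAF medium and 473, 879.8 and 884 RPKM in control, with no overlap. It rose by 0.62 ± 0.15 (limma adjusted p = 0.0474), and its adjusted p was 0.257, 0.231 and 0.0568 with 24, 48 or 72 h left out. IGFBP4 was the 1 called of 25 tested growth factor receptors and ligands, of which 12 were above 0 and 13 below, with a median of -0.08.

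CTSB and WIPI1, a lysosomal protease and an autophagy scaffold, were the 2 of 26 tested lysosome and autophagy genes that rose, by 0.58 ± 0.13 and 0.77 ± 0.19 (limma adjusted p = 0.03 and 0.0467; 0.162 and 0.22 with 24 h left out, 0.219 and 0.289 with 48 h left out). Over all tested genes 1.48% rose. NR1D1, the clock repressor REV-ERB alpha, had 2.39, 8.36 and 3.91 RPKM in CAF medium and 1.02, 2.48 and 3.33 RPKM in control and was the 1 of 16 tested clock genes that rose (limma adjusted p = 0.0467; 0.126 and 0.402 with 24 or 48 h left out). Limma called 0 members of the lists of ER chaperones (21 tested, 2 at an unadjusted p under 0.05), cytosolic heat shock proteins (14 and 3), the Notch pathway (12 and 2), the Wnt pathway (24 and 6), aldehyde dehydrogenases (15 and 2), MHC class I presentation (8 and 2), surfactant and alveolar lineage (5 and 2), metallothioneins (4 and 1) and the epithelial keratins (4 and 0). The share at an unadjusted p under 0.05 over all tested genes was 2634 of 12206. With voom weights 2 of the Wnt list rose and 0 of the other 8 lists were called. Ribosomal proteins had 0 of 80 called by limma (3 at an unadjusted p under 0.05), with log2 changes above 0 in 69, against the 5817 of 12206 given above, and a median of 0.14. Of 15 tested genes of the mitochondrial chromosome 1 short transcript fell, and of 8 tested histone genes HIST1H4H fell; most histone transcripts lack a poly(A) tail and are poorly captured here.

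Whether the late response differed from the one at 3, 6 and 12 h was tested by the difference of the 2 effects, each from 3 pairs. The late effect was higher than the early one in 7 genes (0.0573% of those tested) and lower in 43 (0.352%). Of the 43, 17 were members of the mitosis list. MYBL2 had 59.2, 47.8 and 53.1 RPKM in CAF medium and 51.1, 53.7 and 46.2 RPKM in control at 3, 6 and 12 h, where the media differed by 0.08 on the log2 scale and overlapped, and the difference of the late from the early effect was -1.75 ± 0.27 (limma adjusted p = 0.0367). CDC25C, the phosphatase that switches CDK1 on, had 10.6, 11.8 and 15.95 RPKM in CAF medium and 6.8, 5.98 and 6.72 RPKM in control at 3 to 12 h, and 6.75, 3.93 and 2.03 RPKM in CAF medium and 8.52, 7.56 and 5.58 RPKM in control at 24 to 72 h. It was higher in CAF medium at each early time and lower at each late time. The log2 change was 0.90 early (limma adjusted p = 0.0235), when 3.75% of tested genes rose, and -0.81 ± 0.18 late (limma adjusted p = 0.0315; 0.221 and 0.129 with 48 or 72 h left out), a difference of -1.72 ± 0.26 (adjusted p = 0.0367).

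The median of the mitosis list was 0.12 at 3 to 12 h against -0.99 later, and that of the replication list -0.15 against -0.84, with RFC3 the 1 member of that list among the 43. Outside the list the 43 also held TICRR, an origin-firing factor, RECQL4, a helicase that acts at origins, and C2orf48, now an older name of RRM2, of which TICRR and RECQL4 were chosen after their values were seen. NF-kB targets had a median of -0.98 early, with 18 of 18 below 0 and 10 fallen, and of 0.25 late, with 6 of 18 below 0 and 0 called by limma. Over all tested genes the early median was 0.04, with 5478 of 12206 below 0 and 1.79% fallen. Of the 18, IL6 and SOD2 passed the test of the difference. IL6 had 0.23, 0.8 and 0.99 RPKM in CAF medium and 4.16, 2.26 and 2.54 RPKM in control at 3 to 12 h, and the difference of its late from its early effect was 2.35 ± 0.38 (limma adjusted p = 0.0367). SOD2, mitochondrial superoxide dismutase, had 56.8, 47.8 and 29.2 RPKM in CAF medium and 99.5, 76.5 and 88.02 RPKM in control at 3 to 12 h, and 87.98, 198 and 231 RPKM in CAF medium and 70.1, 113 and 185 RPKM in control at 24 to 72 h, a difference of 1.50 ± 0.25 (adjusted p = 0.0388 in limma). Neither passed the late test by itself in the fit with all 12 libraries. PIP, described above as risen late, had 0.53, 0.92 and 1.02 RPKM in CAF medium and 1.44, 1.96 and 1.77 RPKM in control at 3 to 12 h. With 48 h left out 0 genes differed between the 2 spans in either direction, and with 72 h left out 2 and 1 did.

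**Figure D5:**
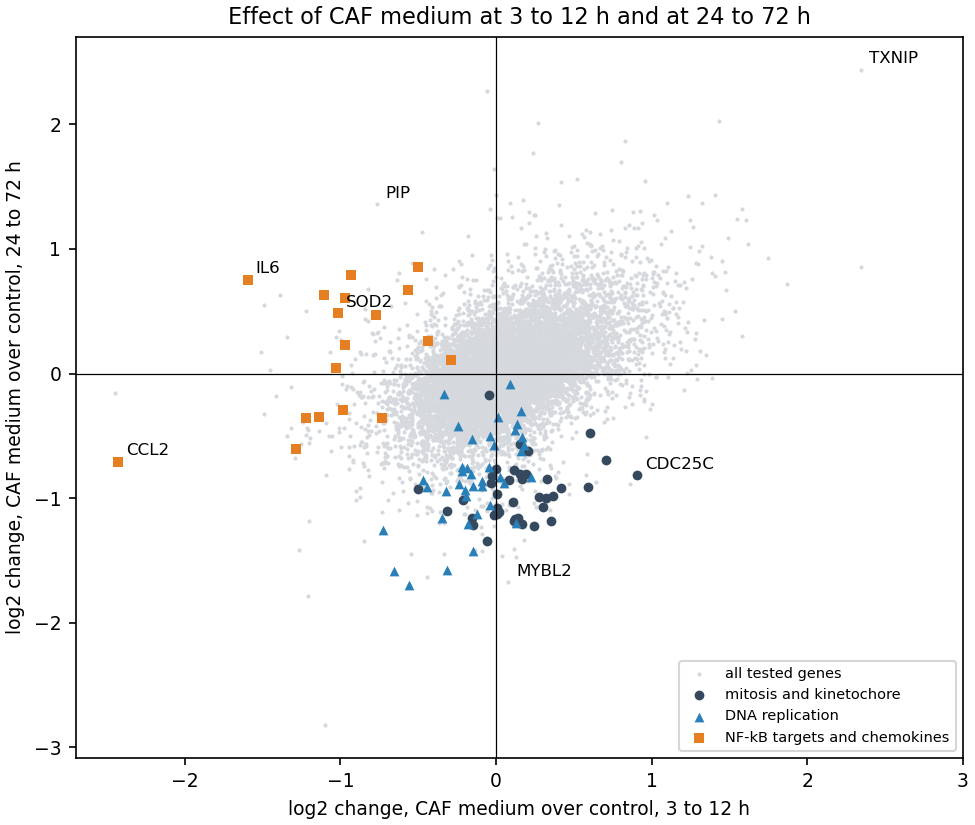
Log2 change, CAF medium over control, at 24 to 72 h (y axis) against 3 to 12 h (x axis), for all 12206 tested genes (small dots) with 3 lists marked. Mitotic genes (circles) lie below the horizontal line and around 0 on the x axis, with medians of -0.99 and 0.12, and NF-kB targets (squares) lie left of the vertical line, with medians of 0.25 on the y axis and -0.98 on the x axis.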

How the data were processed

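Polyadenylated RNA of A549 cells was sequenced from directional libraries on a NextSeq 500, per the labels' protocols. The submitters' processing notes name TopHat2, edgeR and hg19, with no roles. RPKM values to 2 decimals are those the authors deposited, per the file headers. Library depth was worked back from the value of 1 read in short gene models. Here log2(RPKM + 0.5) of genes that averaged at least 1 RPKM was fitted with limma 3.58.1 in R 4.3.3, over 12 mRNA libraries with time as a factor and an early and a late effect of CAF medium, with a variance trend and Benjamini-Hochberg adjustment at 0.05. Values understate the fold change of low genes. The time label pairs the libraries. The text names the 20 largest rises and falls called at 3 of 3 times (leaving out models under 400 bases and names of no gene symbol), called members of the lists, 10 genes of the epithelial-mesenchymal transition and the largest late minus early differences; other genes named are chosen after their values were seen or are uncalled list members. Members and gene lists were chosen with earlier results of these data known. Promoters were matched by symbol. Alternatives were other pseudocounts, filters, scalings, weights and libraries left out. Some list members are not reported here. The miRNA libraries were not used here.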

Additional observations from a re-analysis of the deposited data

Results flagged for a closer look

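For 16 genes the effect of CAF medium at 24 to 72 h differed from that at 3 to 12 h by the test of the difference itself, and they are the 6 positive and 10 negative differences taken by the naming rule. Positive log2 differences, late minus early, were 2.35 in IL6, 2.12 in PIP, 1.50 in STC2, 1.50 in SOD2, 1.24 in FGL1 and 1.24 in CYP1B1. STC2 is a secreted glycoprotein, FGL1 a secreted fibrinogen-like protein and CYP1B1 an oxidase induced by aryl hydrocarbons. STC2 had 6.94, 6.87 and 4.2 RPKM in CAF medium and 15.4, 13.8 and 5.77 RPKM in control at 3, 6 and 12 h, and 7.66, 19.97 and 13.6 RPKM in CAF medium and 6.39, 9.61 and 7.71 RPKM in control at 24, 48 and 72 h. CYP1B1 had 13.3, 10.5 and 7.65 RPKM in CAF medium and 46.6, 29.4 and 16.2 RPKM in control early, and 17.9, 18.3 and 22.3 RPKM in CAF medium and 22.5, 23.6 and 20.1 RPKM in control late.

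Negative differences were -1.75 in MYBL2, -1.75 in C2orf48, -1.72 in CDC25C, -1.60 in SPC25, -1.53 in KIF20A, -1.53 in NCAPG, -1.50 in SHCBP1, -1.50 in NEK2, -1.48 in MXD3 and -1.46 in CENPF. C2orf48 is now an older name of RRM2 in RefSeq, and the authors' table lists both as separate gene models, so reads of the locus may be split between them. It had 34.2, 40.3 and 35.03 RPKM in CAF medium and 19.6, 22.5 and 17.6 RPKM in control early, and 17.7, 6.51 and 5.04 RPKM in CAF medium and 23.1, 14.4 and 12.2 RPKM in control late. KIF20A, a kinesin of cytokinesis, had 25.2, 24.4 and 26.5 RPKM in CAF medium and 19.7, 19.7 and 19.9 RPKM in control early, and 14.8, 6.26 and 3.94 RPKM in CAF medium and 25.4, 18.1 and 10.7 RPKM in control late. The limma adjusted p of the 16 differences lay between 0.0367 and 0.0495. Without the 48 h pair it lay between 0.164 and 0.25, and without the 72 h pair PIP alone of the 16 remained under 0.05, at 0.0121.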

How the results depend on the processing

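The 181 genes that rose and 330 that fell became 119 that rose with a pseudocount of 0.1, 18 that rose and 18 that fell with no filter on low values, and 58 and 161 with the 6 late libraries alone. Leaving out 1 pair of libraries gave between 5 and 228 genes that rose and between 33 and 249 that fell. With no replicate block, that is, without time as the pairing of the libraries, limma called 0 that rose and 0 that fell (1573 at an unadjusted p under 0.05). Of the differences between late and early effects, 7 positive and 43 negative, 0 and 0 remained with no filter, with no trend in the variance and with no replicate block. Median centring gave 25 negative ones, quantile normalization 12 positive ones and voom weights 12 positive ones, and leaving out 1 pair gave 0 to 58 positive and 0 to 188 negative ones. The cause of these moves was not tested. The log2 change of ZEB1 lay between -0.14 and 0.18 with 1 pair left out, below 0 without the 48 h pair, and no other gene taken by the naming rule turned. The called genes could not turn with 1 pair left out, since each had the same sign at 3 of 3 times. Of the 146 called genes taken by that rule, 16 lost the late call with a pseudocount of 0.1 (ACSS2, BST2, CDH1, CHAF1B, COX6B2, GINS3, IGFBP4, ITGA10, MAP1LC3B2, NR1D1, NR4A2, SLC3A2, SLC7A5, ST8SIA6, TJP3 and WIPI1). With no trend in the variance 14 did (ACSS2, CDH1, CHAF1B, COL7A1, DUSP5, GINS3, IGFBP4, RFC2, RRM1, RRM2B, SLC3A2, SLC7A5, TKT and WIPI1), with voom weights 4 (COX6B2, IFITM1, MAP1LC3B2 and RFC2), with quantile normalization 2 (FANCB and SLC3A2), with a pseudocount of 1 FANCB alone, and with the 6 late libraries alone 56. The late minus early test could not be fitted on the 6 late libraries alone. There was 1 library per medium and time, so a fault of a single library and an effect at that time cannot be told apart.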

Other observations

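The genes below were chosen after their values were seen. PTGS2, the inducible cyclooxygenase that makes prostaglandins, had 11.2, 51.7 and 37.4 RPKM in CAF medium at 24, 48 and 72 h and 2.76, 16.4 and 30.2 RPKM in control, a log2 change of 1.26 ± 0.26 (limma adjusted p = 0.025; 0.117, 0.251 and 0.0105 with 24, 48 or 72 h left out). Both nidogens of the basement membrane rose, NID1 by 0.79 ± 0.18 and NID2 by 0.92 ± 0.17 (limma adjusted p = 0.0332 and 0.0141; 0.167 and 0.08 with 24 h left out, 0.256 and 0.127 with 48 h left out). NID2 had 6.09, 10.2 and 6.76 RPKM in CAF medium and 2.24, 5.21 and 4.28 RPKM in control. PGF, a growth factor of the VEGF family, rose by 0.93 ± 0.22 (limma adjusted p = 0.0412; 0.165, 0.236 and 0.0524 with 24, 48 or 72 h left out).

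MIR21, listed as a gene model of 72 bases, had 10.2, 23.9 and 11.3 RPKM in CAF medium and 0.75, 3.14 and 5.54 RPKM in control, a log2 change of 2.27 ± 0.49 (limma adjusted p = 0.0291; 0.116, 0.26 and 0.0176 with 24, 48 or 72 h left out). A polyadenylated library reads such a model through its longer primary transcript, so the value is no measure of the mature miRNA. Between CAF medium at 24 h and control at 48 h, 34 genes were at least 2-fold apart. Among them ID2 and ID1 were lower in CAF medium, by log2 differences of -1.49 and -1.09, and so was ATOH8 (-1.34), another helix-loop-helix gene. CCL20, CHAC1, TUBA1A and ASNS were among the others that were lower. Against control of its own time, 24 h, ID1 was level, with 77.03 RPKM in CAF medium and 77.7 RPKM in control. ID1 and ATOH8 did not pass the late test.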
